A study of Drosophila melanogaster with 2 samples.

Results

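The UDP-glycosyltransferase genes of Drosophila melanogaster were described in S2 cells, an established line derived from fly embryos that resembles macrophage-like blood cells (hemocytes). Members were the genes with a current symbol made of Ugt and a number, or with an older symbol starting with Ugt. Each had a probe set that the platform annotation assigns to that gene alone. The rule found 36 genes, each measured by 1 probe set, among 11983 named genes. Of these, 35 are numbered Ugt genes in 13 subfamilies. The remaining member, Uggt, was taken in through its older symbol Ugt and is an enzyme of another family. The lower-case older symbol ugt of the transporter gene Ugalt was not counted as a match.

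Total RNA was hybridised to 2 Affymetrix Drosophila Genome 2.0 arrays, replicates 1 and 2 of a single group. Both came from cells given dsRNA (double-stranded RNA) against GFP, a jellyfish protein with no gene in the fly, for 8 days in 2 rounds of 4 days. The labels call them duplicates without saying whether the cultures were grown apart, so their spread may be technical. All values therefore come from dsRNA-treated cells. With no untreated cells among the samples used here, they describe 1 state of the cells and not a response to treatment.

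UDP-glycosyltransferases sit in the membrane of the endoplasmic reticulum (ER) and join a sugar from a UDP-sugar donor to small fat-soluble molecules, which makes them easier to excrete. Insect enzymes mostly use UDP-glucose. In the fly they act on plant toxins, insecticides, pigments, hormones and odorants, and they are best known from the gut, fat body, Malpighian tubules and antennae. The number in a symbol names the subfamily, and many members lie side by side in the genome as tandem copies.

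Array medians were 70.8 and 73.8 signal units on replicates 1 and 2. A gene was called detected where its signal exceeded a background limit on both arrays. The limit was the 95th percentile over 126 probe sets of 113 smell and taste receptor genes. These were taken as genes that a blood-like cell would hardly use. The limit was 146 on replicate 1 and 136 on replicate 2. Because the limit is a percentile of this set, some receptor probe sets exceed it by definition. On both arrays, 5 of the 113 receptor genes did. The highest receptor signals were 1523 on replicate 1 and 1458 on replicate 2, so the set is not pure background. Of the 10 hemocyte markers 9 were detected, with Hml (hemolectin) at 4509 ± 520, Pxn (peroxidasin) at 8028 ± 492 and the blood cell transcription factor gene srp at 8647 ± 142 signal units (mean ± SD, n = 2). The marker eater was also detected but nearer the limit, at 233 and 229. The phagocytic receptor gene NimC1 was the exception, at 96.6 and 127. Signals of different probe sets depend on their probes, so the levels of different genes are not ranked against each other.

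Few genes of the family were detected. Signals above the limit on both arrays were found for 6 of the 35 numbered Ugt genes, a share of 17.1%, and for Uggt, which makes 7 of 36 members. Across all named genes 49.1% were detected, and 49.2% of the genes that, like the members, have 1 probe set. By probe set, the share was 46.1% over all named probe sets. The detected Ugt genes were Ugt35A1, Ugt35C1, Ugt36A1, Ugt302C1, Ugt316A1 and Ugt317A1. They come from 5 of the 13 subfamilies, and at most 2 are from the same one. In cells measured in bulk, a few cells with a high level and many cells with a low level cannot be told apart.

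**Figure D1:**
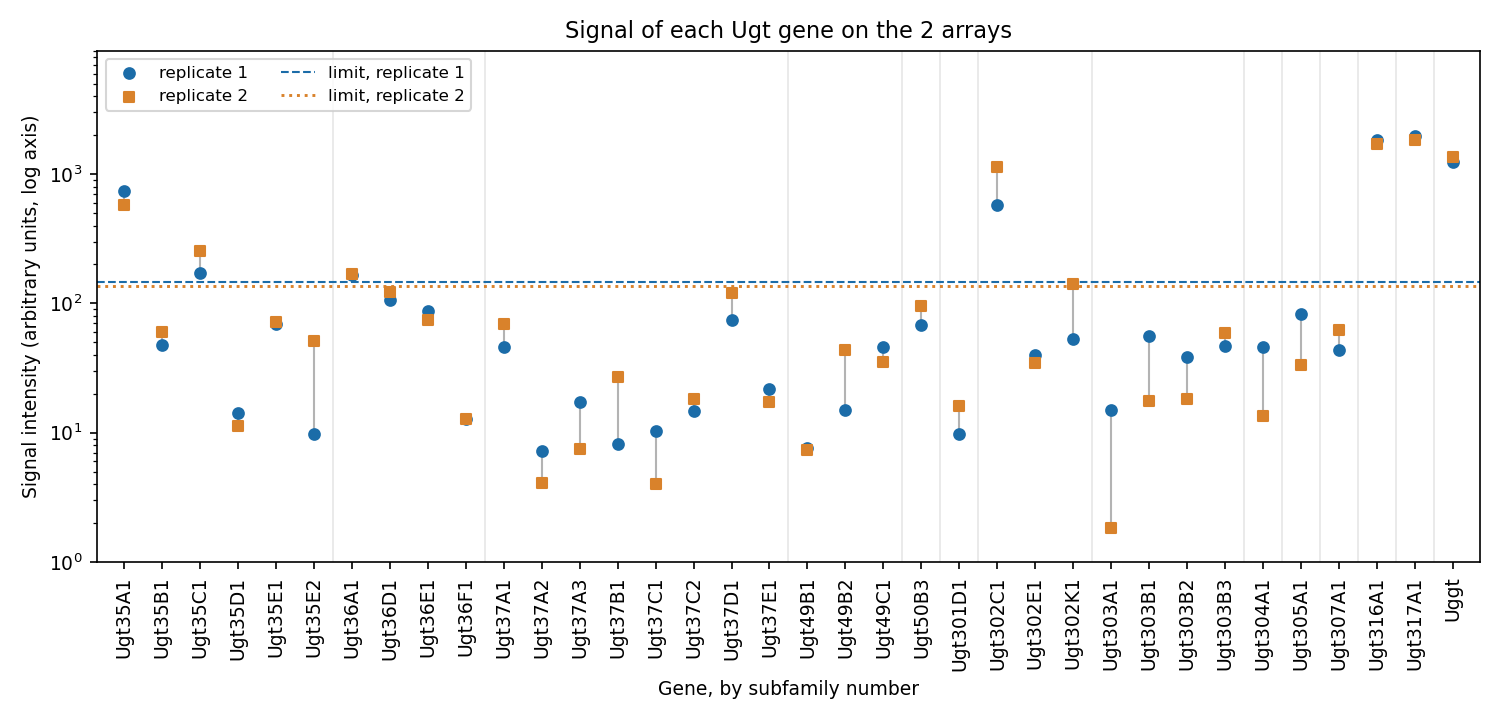
Signal intensity of the 36 members on replicate 1 (circles) and replicate 2 (squares), on a log axis, ordered by subfamily number, with Uggt last and the background limits of 146 and 136 as horizontal lines. Ugt35A1, Ugt35C1, Ugt36A1, Ugt302C1, Ugt316A1, Ugt317A1 and Uggt lie above the lines on both arrays, and Ugt302K1 crosses its line on replicate 2 alone.

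Ugt316A1 and Ugt317A1, the only measured members of their subfamilies, lay far above the limit, with little difference between the arrays. Ugt317A1, formerly Ugt58Fa, had signals of 1982 and 1829 on replicates 1 and 2, which are 13.6 and 13.5 times the limit. Ugt316A1 had signals of 1849 and 1701, which are 12.7 and 12.5 times the limit. Replicate 2 was lower by a small amount for both, with log2 differences of -0.12 and -0.12 against an SD of 0.22 over all 5886 detected genes. The remaining 5 subfamilies with a single measured member, numbered 50, 301, 304, 305 and 307, were not detected.

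Subfamily 35 had 2 detected members of 6. Ugt35A1, formerly Ugt86Df, had signals of 742 and 579, and was 5.09 and 4.27 times the limit. Ugt35C1, formerly Ugt86Dd, a gene in which natural variants have been linked to nicotine resistance of larvae, had signals of 173 and 255. It was only 1.19 times the limit on replicate 1, so its call is close. Ugt35B1, first described as an antennal gene, was below the limit on both arrays at 48.0 and 59.7. Ugt35E1 (68.7 and 71.5), Ugt35E2 (9.79 and 51.1) and Ugt35D1 (14.3 and 11.2) were also below it on both arrays.

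Subfamily 36 had 1 detected member of 4, close to the limit. Ugt36A1, also known as Dorothy (Dot), whose enhancer is widely used to mark pericardial cells and blood cells, had signals of 164 and 169. These are 1.13 and 1.25 times the limit, and the arrays differed by 0.04 on the log2 scale. Ugt36D1 was below the limit with 106 and 122, or 0.73 and 0.90 times the limit. Ugt36E1, known from olfactory neurons, had 87.1 and 75.0, and Ugt36F1 had 12.8 and 12.6.

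Subfamily 302 had 1 detected member of 3, the one that differed most between the arrays among the 7 detected members. Ugt302C1, formerly Ugt86Da, had signals of 577 on replicate 1 and 1139 on replicate 2, or 3.95 and 8.40 times the limit. Ugt302K1 had 53.5 and 142, so that it was below the limit on replicate 1 and above it on replicate 2. It was the only member that passed on 1 array alone. Ugt302E1 stayed below the limit with 39.8 and 34.7.

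None of the 8 members of subfamily 37, the one with most members on the array, was detected. Over all numbered Ugt genes the share was 17.1%, and no contrast between subfamilies is read from such small counts. Their signals ran from 3.97 to 120. Ugt37D1 had 74.7 and 120, or 0.51 and 0.89 times the limit. Ugt37A1 had 46.4 and 69.0, and the other 6 (Ugt37A2, Ugt37A3, Ugt37B1, Ugt37C1, Ugt37C2 and Ugt37E1) lay between 3.97 and 27.0. The 4 members of subfamily 303 had signals from 1.84 to 58.7 and the 3 of subfamily 49 from 7.31 to 45.9, and none of these 7 was detected. Ugt50B3, of a subfamily kept across many insects, had 67.9 and 94.8.

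By definition, the members not detected lay below the limit on at least 1 array. Their overlap with the background set is therefore not a result. Over these 29 genes the median signal was 39.8 on replicate 1 and 33.6 on replicate 2. The medians over all receptor probe sets, including those above the limit, were 43.1 and 43.6. Both signals were above the receptor medians for 10 of the 29 and both below for 14. Their values also scattered widely: the SD of the log2 difference between the arrays was 1.16, beside 1.09 over all 7356 named probe sets not detected, and 14 of the 29 were higher on replicate 2. Given this scatter, levels below the limit are not ordered among the members. A low level of their transcripts could not have been detected on these arrays, so absence and a low level are not told apart. The probe sets of 3 members (Ugt36E1, Ugt37D1 and Ugt50B3) carry the suffix that the array maker gives to probes shared by more than 1 transcript. For no member, detected or not, could it be examined whether its probes also catch transcripts of a close relative, as probe sequences were not available.

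Many members lie side by side in the genome. In RefSeq's list of fly genes (release 6 assembly), 22 of the 35 Ugt genes have another one as the next protein-coding gene, in 7 runs, and 2 of the 22 were detected, in different runs. Of the 13 with no such neighbour 4 were detected. By chromosome arm, detection was 1 of 11 on 2L, 1 of 5 on 2R, 1 of 2 on 3L and 3 of 17 on 3R, and no measured member lies on the X. Across all named genes 49.1% were detected. With 6 detected Ugt genes, no pattern by position or arm is read from these counts. The run of 3 genes around Ugt36D1, the run of 3 around Ugt37E1, the 3 genes of the Ugt303B branch, and the adjacent genes Ugt37A2 and Ugt37A3, or Ugt49B1 and Ugt49C1, held no detected gene.

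Of the 10 genes formerly named Ugt86D, which lie close together on arm 3R with a few other genes between them, 3 were detected. The share was 17.1% over the numbered Ugt genes and 49.1% over all named genes, and no contrast is read from so small a count. Along the arm the order is Ugt35C1, Ugt302K1, Ugt302E1, Ugt302C1, Ugt35E1, Ugt35E2, Ugt35B1, Ugt35A1, Ugt304A1 and Ugt303A1. Ugt35A1, at 742 and 579, lies between Ugt35B1 (48.0 and 59.7) and Ugt304A1 (45.9 and 13.4). Ugt302C1, at 577 and 1139, lies between Ugt302E1 (39.8 and 34.7) and CG4757, a gene outside the family with 2.94 and 5.60. Both genes were thus detected between neighbours that were not. Ugt35C1 stands apart at one end, beside SdhCL (34.3 and 48.4) and mAcon2 (12.0 and 9.81), both below the limit.

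**Figure D2:**
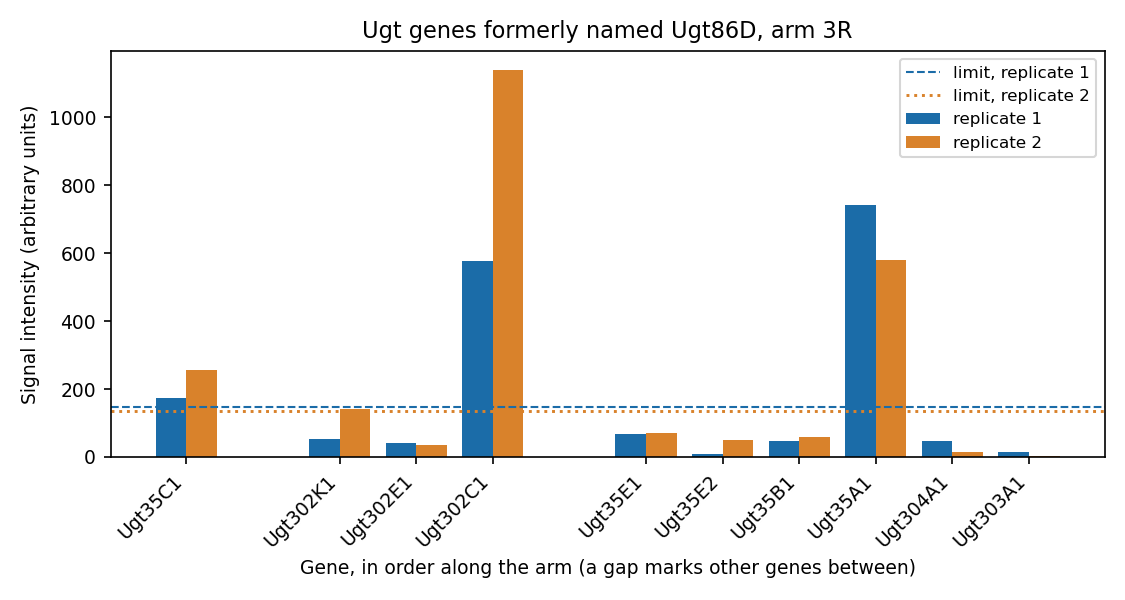
Signal intensity on a linear axis of the 10 genes formerly named Ugt86D, in their order along arm 3R, with replicate 1 and replicate 2 as adjacent bars (1 array each) and the background limits as lines; gaps mark other genes in between. Ugt302C1 and Ugt35A1 stand well above the limits between neighbours that do not, and Ugt302K1 reaches 142 on replicate 2 alone.

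The measured genes next to the members but outside the family were detected in 3 of 8 cases beside detected members. Beside members not detected it was 9 of 26 cases, and across all named genes 49.1%. No contrast is read from these small counts, and CG4757 is in both of them. CG3961, detected at 6561 and 7050, lies beside Uggt and not beside a numbered Ugt gene. Ugt317A1 lies next to the cyclophilin gene CG2852, which had 6685 and 7528. Ugt316A1 lies next to the sideroflexin gene Sfxn2, at 618 and 639. The neighbours of Ugt36A1, odd (1.78 and 9.96) and CG15418 (26.7 and 65.8), were below the limit.

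Between the arrays, Ugt302C1 differed more than nearly all detected genes. It was 1.97-fold higher on replicate 2, a log2 difference of 0.98 that ranked 12 by size among the 5886 detected genes. Ugt35C1 was 1.47-fold higher on replicate 2 (0.56 on the log2 scale), and 1.97% of detected genes differed by at least as much. Ugt35A1 went the other way, with a log2 difference of -0.36. Of the 7 detected members 1 differed by over 1.5-fold, where 1.70% of all detected genes did, and 4 were higher on replicate 2. Their median log2 difference was 0.04, beside -0.0022 over all detected genes. Each array is 1 sample, so these differences have no test.

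The detected genes of the other detoxifying families had small median log2 differences between the arrays, 0.08 for cytochrome P450 genes and 0.14 for glutathione transferase genes. Single genes picked here for their large difference were higher on replicate 2. The metallothionein gene MtnA had 2926 and 10874, the cytochrome P450 gene Cyp6a23 had 242 and 489, and the glutathione transferase gene GstD9 had 1068 and 2135. Others went the other way by less, such as Cyp12a4 with 454 and 369 and the sulfotransferase gene St3 with 612 and 429. Over all detected named probe sets, 3083 were higher on replicate 2 and 3208 were lower, so these picked genes do not show a common direction. Whether the differences of Ugt302C1 and Ugt35C1 are tied to those of any other gene was not tested. Under quantile normalization Ugt302C1 still differed by 0.97 on the log2 scale and Ugt35C1 by 0.54.

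**Figure D3:**
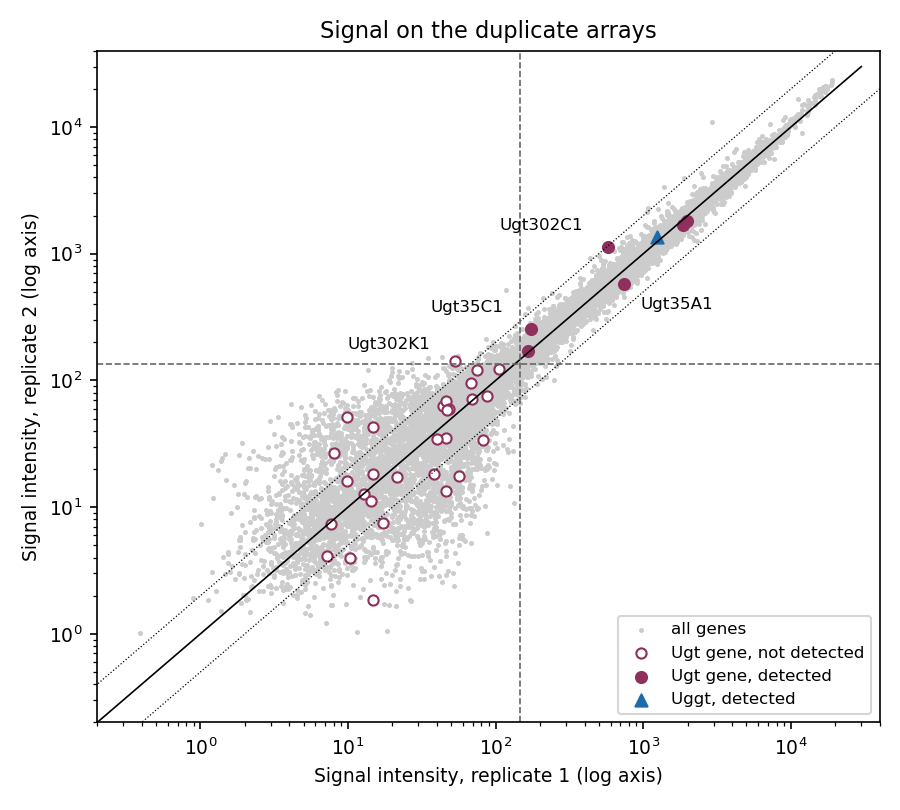
Signal intensity on replicate 2 against replicate 1 on log axes, with 1 point per named gene (grey), the Ugt genes (purple, filled where detected) and Uggt (blue triangle); the solid line marks equal signals, dotted lines a 2-fold difference and dashed lines the background limits. Ugt302C1 lies close to the upper dotted line at 577 and 1139, Ugt316A1 and Ugt317A1 lie near the solid line, and the Ugt genes below the limits scatter with the other weak genes.

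Uggt (UDP-glucose:glycoprotein glucosyltransferase) uses the same sugar donor for another purpose: it adds glucose to misfolded glycoproteins in the ER so that the lectin chaperone calnexin binds them again. It was detected at 1247 and 1362, which are 8.55 and 10.1 times the limit. All 5 measured genes of the ER lectin cycle were detected with it, beside 49.1% of all genes. The calnexin gene Cnx99A had 7278 ± 477, the glucosidase genes GCS1, GCS2alpha and GCS2beta had 492 ± 35.7, 6578 ± 427 and 1271 ± 94.2, and the degradation lectin gene Edem2 had 456 ± 5.45 (mean ± SD, n = 2).

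Genes that make or move the sugar donors were mostly detected. Of 10 measured genes for the supply of UDP-sugars and related sugars 9 were detected (90%, beside 49.1% of all genes). The UDP-glucose dehydrogenase gene sgl had 3566 ± 287, the phosphoglucomutase gene Pgm1 had 982 ± 373, and Pgm2a, an annotated relative of it, had 2584 ± 379. UGP, the gene for the enzyme that makes UDP-glucose, was the exception and lay below the limit with 98.8 and 107. Among nucleotide-sugar transporters all 7 measured genes were detected, including Ugalt, which carries UDP-galactose, at 1168 ± 201, Efr at 1030 ± 49.1 and senju at 1265 ± 126. Of this list sll (657 ± 51.7) and Papst2 (1043 ± 38.1) carry the sulfate donor PAPS rather than a sugar.

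Other sugar transferases of the ER and Golgi, which act on lipids or proteins, were detected in 17 of 19 cases (89.5%, beside 49.1% of all genes). The ceramide glucosyltransferase gene GlcT had 321 ± 2.90, the glycolipid mannosyltransferase gene egh had 1411 ± 10.6, and Alg10, which adds the last glucose to the lipid-linked sugar chain, had 760 ± 11.6. The exceptions were gny, which adds an earlier glucose to that chain, at 34.6 ± 6.27, and Pgant2, which starts mucin-type sugar chains, at 95.4 ± 17.7.

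Among the other detoxifying families, the cytochrome P450 genes were detected in 21 of 83 cases (25.3%) and the glutathione transferase genes in 20 of 34 (58.8%). The share over all named genes was 49.1%. The Ugt share of 17.1% was the lowest of the 3 families. Members of a family share sequence and position and are not independent, so no test was made of these shares. Of the 5 measured sulfotransferase genes and their donor enzyme, St3 (521 ± 130) and the PAPS synthase gene Papss (773 ± 30.5) were detected, while St1 (34.5 ± 23.6), St2 (9.78 ± 0.694) and St4 (5.78 ± 0.434) were not. Of 4 transporters that export drugs and conjugates, MRP was detected at 4109 ± 575, and Mdr49 (124 ± 25.8), Mdr50 (7.25 ± 0.16) and Mdr65 (8.22 ± 3.13) were not.

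Regulators known to control detoxification genes were mostly detected, in 8 of 10 cases (80%, beside 49.1% of all genes). The gene for the stress factor cnc, the fly counterpart of Nrf2, had 1139 ± 171, its inhibitor gene Keap1 had 338 ± 26.6, its partner gene maf-S had 2467 and 2333, and the xenobiotic nuclear receptor gene Hr96 had 617 ± 73.1. The receptor-type factor genes ss (17.0 ± 18.1) and Met (97.5 ± 7.47) were not detected. Of 13 genes of the drug-inducible list 6 were detected (46.2%), close to the share over all genes. The detected ones included Cyp6d4 at 1910 ± 373, and the glutathione transferase genes GstD1 at 1876 ± 178 and GstE6 at 10086 ± 1736. Cyp6a2 (73.9 ± 4.04), Cyp6a8 (133 ± 7.31) and Cyp6g1 (4.56 ± 3.17), genes known for their part in insecticide resistance, were not detected.

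Markers of the tissues in which the family is best known were largely below the limit, while 49.1% of all named genes were detected. None of 7 midgut markers was detected, with the trypsin gene alphaTry at 9.88 ± 0.584. For the fat body it was 1 of 6, Lsp2 at 220 and 156, while Fbp1 had 15.8 ± 0.277. Of 8 Malpighian tubule markers the potassium channel gene Irk2 was detected, at 156 ± 17.0, and of 8 antennal markers Obp19d, an odorant-binding protein gene, at 167 ± 10.5. The other tubule markers lay between 7.74 and 106, and the other antennal markers between 11.3 and 133. Orco, an antennal marker, is also among the smell receptor genes that set the limit. The antennal count is thus not independent of that limit. The marker counts give the setting of the Ugt values, and their part in those values was not tested.

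**Figure D4:**
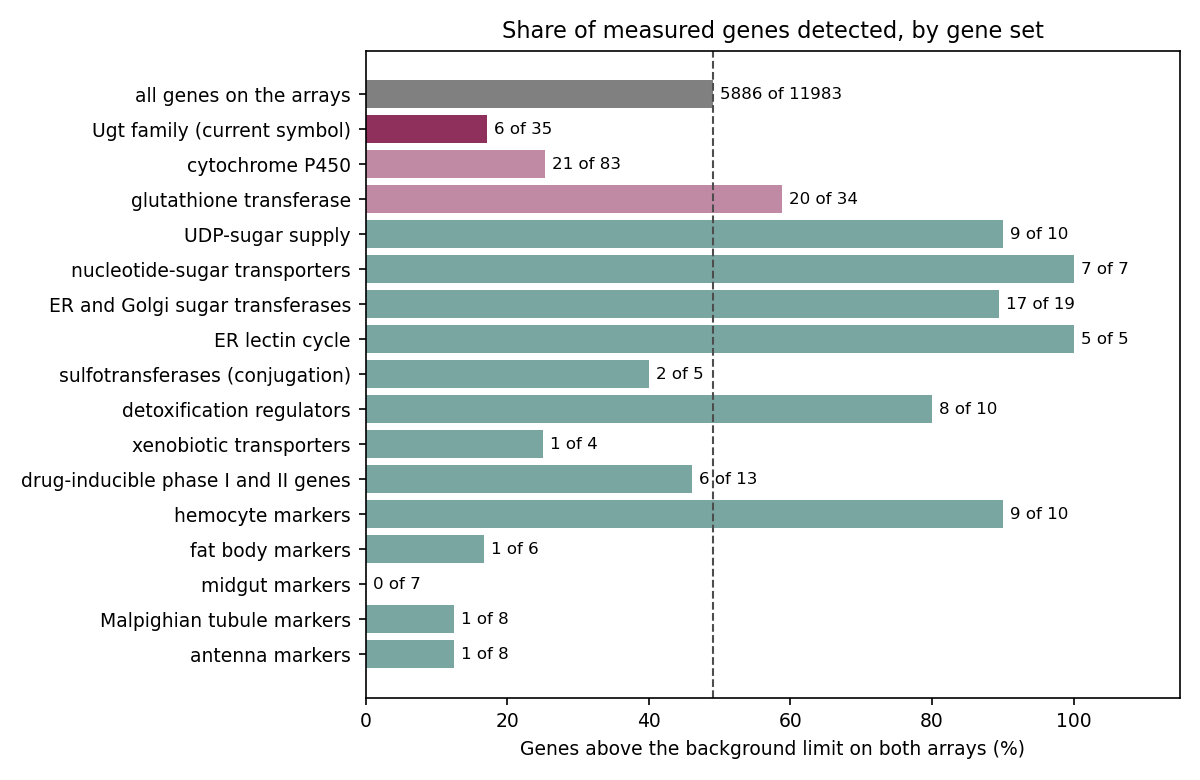
Share of measured genes above the background limit on both arrays, in percent, for all named genes (grey), the numbered Ugt genes (dark), the cytochrome P450 and glutathione transferase families (light) and the gene lists (green), with counts beside the bars and a dashed line at 49.1%. The Ugt bar ends at 17.1%, left of the line, and the bars for UDP-sugar supply, nucleotide-sugar transporters and ER or Golgi sugar transferases reach 89.5% or more.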

How the data were processed

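The deposited values are signal intensities on a linear scale, 1 for each of 18952 probe sets on each array. Per the series' design text, GeneChip Operating Software 1.2 produced the data. Which algorithm, scaling and filters it applied is not given in the sources used here. Intensities were used as deposited, without further normalization, and precision is limited by the 2 arrays. Of the probe sets, 13647 had a single gene in the platform annotation, and symbols were updated by gene identifier through a RefSeq table of the release 6 fly assembly (11894 of 11983 genes matched). That table gave chromosome arms and gene order only.

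A gene was detected where any of its probe sets exceeded the receptor limit on both arrays, and its level is that of its probe set with the highest mean. Signals under 1 were raised to 1 before log2. The code that sets the limit and makes the calls was tested on simulated data. With 1 group, no test between conditions was possible, and no set test was made. Analyses used Python 3.11.15, pandas 2.3.3 and numpy 2.4.6.

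All members were named. From each of 13 gene lists (113 of 133 entries measured), text names up to 4 measured genes in written order and those against the list's majority. A few further list members and the neighbouring genes were named after their values were seen, as were MtnA, Cyp6a23 and GstD9. Members, lists and settings were chosen with earlier results of these data known. Alternatives were other limits, each array alone, other scalings, and stricter calls.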

Additional observations from a re-analysis of the deposited data

How the results depend on the processing

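The count of detected members was 7 of 36 as reported and stayed within 5 to 9 under every alternative run, with 43.9% to 55.5% of all genes detected. With the 99th percentile limit (184 and 278) it was 5, without Ugt36A1 and Ugt35C1. With the 90th percentile limit (103 and 110) it was 8, adding Ugt36D1, and with the highest of 50 control probe sets as limit (85.0 and 70.3) it was 9, adding Ugt36D1 and Ugt36E1. Each array alone gave 7 or 8, the latter on replicate 2 with Ugt302K1. Quantile normalization, requiring every probe set to pass, and counting genes with 1 probe set only, a setting chosen after seeing the data, left 7, and dropping Uggt left 6. Calls for Ugt35A1, Ugt302C1, Ugt316A1, Ugt317A1 and Uggt held under each of these limits, after quantile normalization and on each array alone. The cytochrome P450 share was 20.5% to 28.9% and that of glutathione transferases 58.8% to 64.7% between the 99th and 90th percentile limits. The median log2 difference of the detected members was 0.04 as reported, 0.05 after quantile normalization, 0.03 with 50 added to each signal, -0.02 after median scaling and -0.12 with the 99th percentile limit. All of these are smaller than the SD of 0.46 among the detected members, so no direction is given for them as a group. With 2 arrays, transcripts near or below the limit are not resolved.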
